A study of Mus musculus with 17 samples.

Results

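Gene expression in wild-type mouse lung was compared between 22 h and 7 h after a dose of LPS. Of the 17 arrays in the series, the 6 labelled as wild-type and LPS were compared, 3 at each time. All 22626 probe sets other than the array's own controls were tested. LPS, or endotoxin, is a component of the outer membrane of Gram-negative bacteria. The mice were male C57BL/6J animals, the LPS came from Escherichia coli O111:B4, and 20 mg/kg was given intravenously. Each array held RNA of whole lung, and the lungs at 7 h and at 22 h came from different mice. Wild-type lungs taken 22 h after saline (n = 4) gave the level without LPS. No saline lungs were labelled for 7 h, and the time of day of the harvests is not given in the labels. Lungs of male NOS2-/- mice, which lack inducible nitric oxide synthase throughout the body, were measured 7 h (n = 3) and 22 h (n = 3) after the same LPS dose, and 1 such lung after saline. In whole lung, fewer cells of a type and less RNA per cell cannot be told apart. The labels give the arrays as separate samples of a group. The p-values rest on the spread between samples within groups, estimated over all 17 arrays and not from the 6 compared arrays alone.

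LPS is sensed by Toll-like receptors of macrophages, endothelium and other cells, which switch on NF-kB and interferon regulatory factors. Cytokine and chemokine genes are transcribed first, and the interferons made in this phase then drive a wider set of antiviral genes through STAT factors. Many of the induced proteins, among them SOCS proteins and NF-kB inhibitors, shut the same pathways down again. The lung meets LPS from the blood at its large capillary bed, where neutrophils collect and endothelial genes respond. The comparison of 22 h with 7 h addresses which parts of this response resolve and which progress.

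Lung markers were high on the 6 arrays. Sftpb, a surfactant protein gene of alveolar type 2 cells, lay between 12.81 and 13.61 on the log2 scale, and Cyp2f2, a cytochrome P450 gene of airway club cells, between 12.40 and 13.98. Array medians lay between 8.46 and 8.54. One array, wild-type LPS 22 h replicate 2, stood apart from the others. It correlated at 0.955 and 0.949 with the other 22 h arrays across probe sets, which correlated at 0.996 with each other, and the 7 h arrays correlated with each other at 0.997 or 0.998. Its bright probe sets were lower and its dim ones higher than on the other 22 h arrays, with a slope of 0.878 on the mean of replicates 1 and 3. It lay at least 2-fold from that mean at 1485 probe sets, and replicates 1 and 3 lay that far apart at 7. Its control probe set for the middle of 18S rRNA had a log2 signal of 7.67, and the other 5 arrays lay between 6.35 and 6.65. The part of these differences in the results was not tested, and counts of list members are given without this array too where they differ.

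**Figure D1:**
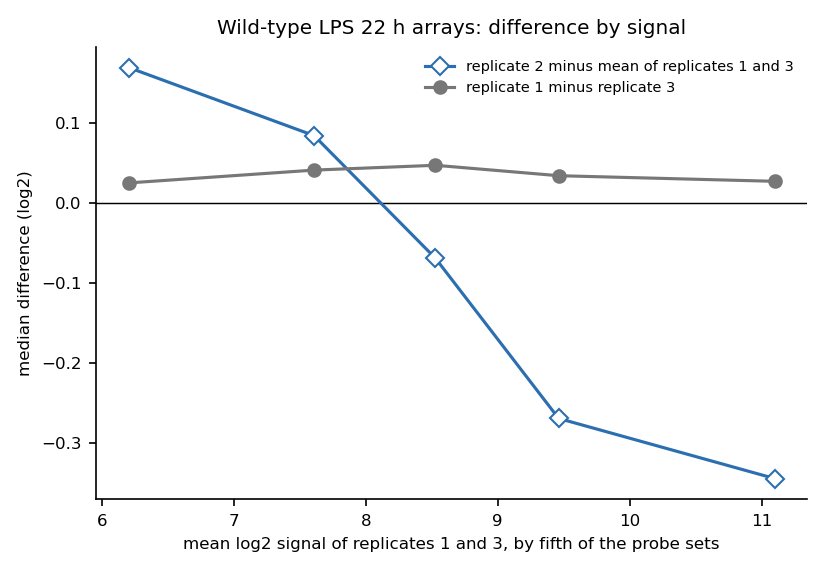
Median difference in log2 signal within 5 equal bins of the probe sets by signal (y axis) against the mean log2 signal of wild-type LPS 22 h replicates 1 and 3 (x axis). Replicate 2 was 0.169 above the other 22 h arrays in the dimmest bin and -0.344 relative to them in the brightest, and replicates 1 and 3 differed by at most 0.047 in any bin.

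Between 7 h and 22 h, falls outnumbered rises. With limma, 2451 probe sets passed an adjusted p of 0.05 (10.8% of those tested), 1738 lower at 22 h (7.68%) and 713 higher (3.15%). The median log2 difference of the called probe sets was 0.505 in size, and that of all probe sets was 0.00947. A change of at least 2-fold was seen at 252 called probe sets, 215 lower and 37 higher. The split between rises and falls depended on replicate 2 and on the scaling. Without that array 3425 probe sets were called (15.1%), 1676 higher (7.41%) and 1749 lower (7.73%), and 635 of the rises and 1514 of the falls were called in both fits. Quantile normalization gave 1235 rises and 1676 falls. Counted by gene, with each gene represented by its brightest probe set, 431 of 12393 genes rose (3.48%) and 1047 fell (8.45%). Without replicate 2, 8.04% rose and 8.52% fell. These shares are the level with which the counts of every gene list below compare, also where they are not repeated. A list with counts near them does not stand out.

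Set beside the level after saline, the called genes went both ways. Of the 1047 genes that fell, 402 (38.4%) had a mean at 22 h that was still above saline, 263 (25.1%) had gone from above to below it, and 382 (36.5%) were below saline at 7 h and lower still at 22 h. Of the 431 genes that rose, 143 (33.2%) were below saline at both times and nearer to it at 22 h. A further 141 (32.7%) went from below to above it, and 147 (34.1%) were at or above it at 7 h and higher still at 22 h. These are orders of group means, with no test, since the 7 h arrays enter both the fall and the order. Gene groups differed in which of these orders their members took, as given below for each.

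The interferon response fell as a group. Of 31 measured genes 28 fell and 0 rose, against 8.45% of all genes that fell, and the median log2 difference was -0.98, against 0.0122 over all genes. Without replicate 2, 26 fell and the median was -0.88, and leaving out 1 of the 7 h arrays left between 22 and 24 falls. All 28 of the genes that fell still lay above saline at 22 h. The median member was 2.79 log2 units above saline at 7 h and 1.56 above it at 22 h. Interferon-stimulated genes carry short promoter elements bound by STAT and interferon regulatory factors. Promoter windows from 250 bases before to 50 bases after the start of each gene (RefSeq, GRCm38.p6) were searched on both strands for GAAA, any 2 bases and GAAA again, the core of the interferon-stimulated response element. Of the 23 list members with a window, 14 held them (60.9%), against 3.99% of all 27025 genes with a window. The windows of Ifit2, Cmpk2 and Oasl1, which fell too, held no match. Of members not called, Igtp had 1 match and Irf7 had 0. Among early cytokine and chemokine genes, 1 of 21 with a window held the element (4.76%), and that gene was Cxcl10. Whether the falls go with the element was not tested. The following 4 windows are shown because their genes belong to the groups that fell and hold the element. They were chosen after the values were seen, and the matched letters are in capitals, read 5′ to 3′ on the strand of the gene.
Cxcl10 promoter, chr5:92348840-92349139, minus strand: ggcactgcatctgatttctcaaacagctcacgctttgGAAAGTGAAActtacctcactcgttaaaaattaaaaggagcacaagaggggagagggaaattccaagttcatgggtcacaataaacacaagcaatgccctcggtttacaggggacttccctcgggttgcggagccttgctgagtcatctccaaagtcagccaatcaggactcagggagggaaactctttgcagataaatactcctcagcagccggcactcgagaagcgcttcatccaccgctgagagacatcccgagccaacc
Ifit1 promoter, chr19:34640639-34640938, plus strand: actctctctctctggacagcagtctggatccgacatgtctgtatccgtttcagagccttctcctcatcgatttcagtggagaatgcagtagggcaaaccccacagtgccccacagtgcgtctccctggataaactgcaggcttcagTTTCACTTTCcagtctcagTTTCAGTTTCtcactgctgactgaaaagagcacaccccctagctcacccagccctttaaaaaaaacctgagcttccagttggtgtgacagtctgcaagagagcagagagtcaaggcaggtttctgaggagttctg
Ifit3 promoter, chr19:34583279-34583578, plus strand: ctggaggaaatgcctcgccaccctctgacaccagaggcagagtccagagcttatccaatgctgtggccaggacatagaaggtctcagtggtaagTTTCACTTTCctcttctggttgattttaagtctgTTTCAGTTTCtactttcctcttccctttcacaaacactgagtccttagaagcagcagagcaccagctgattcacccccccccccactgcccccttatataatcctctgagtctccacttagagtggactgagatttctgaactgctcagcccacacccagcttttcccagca
Oas1a promoter, chr5:120907476-120907775, minus strand: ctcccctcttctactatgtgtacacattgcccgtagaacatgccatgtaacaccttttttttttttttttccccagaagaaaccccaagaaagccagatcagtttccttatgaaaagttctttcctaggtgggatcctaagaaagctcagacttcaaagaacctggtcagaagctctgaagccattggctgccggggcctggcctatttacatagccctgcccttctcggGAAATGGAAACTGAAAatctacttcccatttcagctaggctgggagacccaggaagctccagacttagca

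Each of these 4 genes was lower on all 22 h arrays than on all 7 h arrays. Cxcl10 encodes a chemokine that draws T cells through the receptor CXCR3, and its window holds 1 match. Its log2 signal was 13.58, 13.67 and 13.65 at 7 h and 11.37, 10.81 and 11.37 at 22 h, a 5.46-fold fall (limma adjusted p = 8.69e-08). Ifit1 encodes a protein that binds viral RNA lacking a host cap, and its window holds 2 matches. It stood at 13.21, 13.40 and 13.38 at 7 h and 11.93, 11.60 and 11.81 at 22 h, a 2.92-fold fall (limma adjusted p = 4.35e-06). Its neighbour Ifit3, also with 2 matches, fell 2.15-fold (limma adjusted p = 7.97e-05). Oas1a, a synthase of the 2-5A signal that activates RNase L, has 2 overlapping matches just before its start and fell 2.63-fold (limma adjusted p = 9.2e-05). A match to these letters is a description of the window and does not show a bound site.

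The interferon genes with the largest falls were antiviral effectors. Mx1, a dynamin-like antiviral GTPase, had a log2 signal of 9.73, 10.41 and 10.31 at 7 h and 8.69, 7.04 and 8.86 at 22 h. The array at 7.04 was replicate 2, and the fall was 3.87-fold with it (log2 difference -1.95, SE 0.41, limma adjusted p = 0.00561) and -1.37 on the log2 scale without it (limma adjusted p = 0.00324). Ifit2, a relative of Ifit1, fell 3.58-fold from 12.29, 12.63 and 12.63 to 10.83, 10.00 and 11.20. Cmpk2, a mitochondrial nucleotide kinase, fell 3.17-fold, and Oasl1, a relative of the OAS enzymes, 2.93-fold. Ddx60, a helicase that aids RNA sensing and is not in the list, fell 4.07-fold, from between 9.77 and 10.08 to between 7.43 and 8.18. Irf7, Igtp and Iigp1 were the 3 members not called, with log2 differences of -0.45, -0.40 and -0.27. Here and below, members that were not called were picked for mention after their values were seen, apart from the clock genes.

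Ifng and a set of immune genes were among the largest falls. Ifng, the cytokine of natural killer and T cells, had a log2 signal of 9.32, 10.52 and 10.50 at 7 h and 6.47, 7.38 and 6.68 at 22 h. Saline lungs stood at 5.99 ± 0.05 (SD, n = 4), so all 22 h arrays still lay above the level without LPS. The fall was 9.66-fold (log2 difference -3.27, SE 0.32, limma adjusted p = 1.22e-05). Cxcl11, another ligand of CXCR3, showed the largest fall of any gene. It went from 12, 12.11 and 12.11 to 8.11, 8.74 and 8.04, with saline at 7.09 ± 0.15 (SD, n = 4), a 13.7-fold fall (log2 difference -3.77, SE 0.15, limma adjusted p = 4.03e-09). Its second probe set fell by 1.20 on the log2 scale, so the size depends on the probe set. Ubd, a ubiquitin-like modifier, went from 12.06, 12.69 and 12.19 to 9.86, 9.57 and 9.80, a 5.95-fold fall. Ido1, the first enzyme of tryptophan breakdown to kynurenine, went from 12.10, 12.59 and 12.38 to 10.21, 9.65 and 9.96, a 5.34-fold fall. Both stayed above their saline levels of 7.68 ± 0.25 and 7.72 ± 0.19 (SD, n = 4). Cd40, a costimulatory receptor of antigen-presenting cells, went from between 10.82 and 10.99 to between 8.56 and 8.92, a 4.60-fold fall, with saline at 8.25 ± 0.16 (SD, n = 4). Some other genes known to respond to interferon gamma were called lower and some were not called. Irf1, Irf8 and Gbp2 fell, with log2 differences of -1.05, -0.92 and -0.57. The chemokine gene Cxcl9 was not called, with a log2 difference of -0.46 (limma adjusted p = 0.124), and neither were Igtp and Iigp1, given above.

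**Figure D2:**
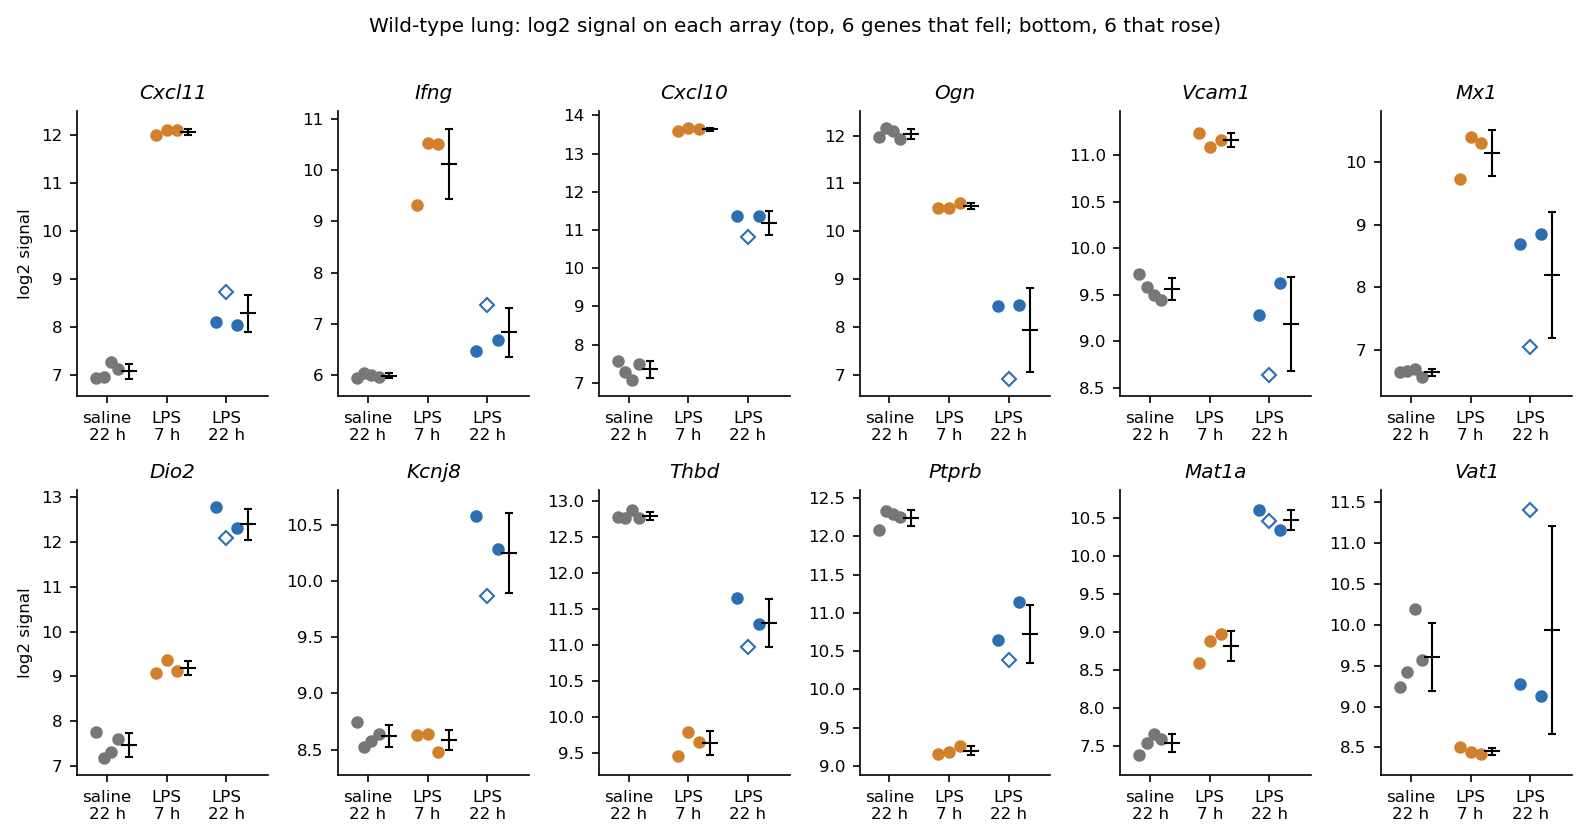
Log2 signal (y axis) on each wild-type array for 6 genes that fell from 7 h to 22 h after LPS (top) and 6 that rose (bottom), with saline arrays (grey), 7 h (orange) and 22 h (blue). Points are arrays, the open diamond is LPS 22 h replicate 2, and the bars give the mean ± SD of each group. The y axes differ between panels and do not start at 0. For Vat1 the 22 h mean rests on replicate 2 at 11.40, with the other 22 h arrays at 9.28 and 9.13.

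Early cytokine and chemokine genes fell without a single rise. Of 30 measured, 17 fell (8.45% of all genes did) and the median log2 difference was -0.64. Without replicate 2, 18 fell, with a median of -0.57. Of the 17, 16 still lay above saline at 22 h. Ccl4 and Ccl3 encode chemokines that draw monocytes and T cells. Ccl4 went from 11.44, 11.35 and 11.37 to 9.92, 9.57 and 9.23, a 3.52-fold fall (limma adjusted p = 3.17e-05). Ccl3 went from 11.17, 11.00 and 11.05 to 9.96, 9.34 and 8.99, a 3.13-fold fall (limma adjusted p = 0.000191). Members not called included Il6, with a log2 difference of 0.00, Csf3, the growth factor of neutrophils, with -0.05, and Tnf, with -0.43. Without replicate 2 Tnf was called lower, with a log2 difference of -0.57 (limma adjusted p = 0.00357). In another list, of 22 genes of alternative macrophage activation, 5 fell and 3 rose, or 5 and 5 without replicate 2. Its median log2 difference was 0.08. Of that list Ccl17, a ligand of CCR4 made by dendritic cells, went from 10.66, 10.85 and 10.66 to 8.97, 8.81 and 8.55 (3.86-fold). Ccl22, another ligand of CCR4, fell 2.7-fold, and Clec10a rose 1.79-fold.

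NF-kB subunits, inhibitors and feedback genes fell in 13 of 19 cases with and without replicate 2, against 8.45% and 8.52% of all genes. None rose, and the median log2 difference was -0.54. The letters searched for an NF-kB element were GGG, any 2 bases, TT, any base and CC. Windows of 8 of 21 early cytokine and chemokine genes held them on either strand (38.1%), against 5.48% of all genes with a window. Whether the falls of those genes go with these letters was not tested, and a match does not show a bound site. Icam1, an endothelial adhesion molecule for leukocytes, went from 13.22, 13.16 and 13.18 to 12.22, 12.07 and 12.28, a 2-fold fall (limma adjusted p = 4.82e-07). Bcl3, an atypical member of the NF-kB inhibitor family, fell 1.87-fold, and the adaptor gene Traf1 1.85-fold. Vcam1, an endothelial adhesion molecule for monocytes and lymphocytes, is an NF-kB target outside this list. It went from 11.24, 11.09 and 11.16 to 9.28, 8.64 and 9.63, a 3.94-fold fall to about the saline level of 9.56 ± 0.12 (SD, n = 4). Its 3 probe sets all fell, by between 0.86 and 2.40 on the log2 scale.

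Some feedback inhibitors and other genes of the early phase also fell. Of 19 STAT3 targets and SOCS genes, 8 fell and 0 rose, or 8 fell and 1 rose without replicate 2. The median log2 difference was -0.23. The list's median level was 1.17 log2 units above saline at 7 h and 1.20 above it at 22 h. Socs3 and Il1r2 were not called, with log2 differences of -0.25 and -0.01. Socs1, the inhibitor of JAK kinases, went from 10.12, 10.47 and 10.30 to 8.70, 8.84 and 8.42, a 3.13-fold fall (limma adjusted p = 8.45e-06). Il1rn, the antagonist of the interleukin-1 receptor, fell 1.88-fold, as did Il6st, the shared receptor subunit gp130. Of 25 immediate-early transcription factors 6 fell and 2 rose, or 5 fell and 1 rose without replicate 2. Atf3 fell 2.44-fold and Myc 1.82-fold, and Klf4, a factor of quiescent endothelium, rose 1.80-fold. Of 12 genes of MHC class I loading and the immunoproteasome, 7 fell with and without replicate 2, led by the immunoproteasome subunit Psmb9 (1.79-fold) and the peptide transporter subunit Tap2 (1.70-fold). None of 8 MHC class II genes was called (limma, adjusted p under 0.05), and 1 was called higher without replicate 2. Cd74 stood at 13.06, 13.38 and 13.21 at 7 h and 12.92, 12.93 and 13.29 at 22 h.

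Genes of ribosome biogenesis, which make and process ribosomal RNA in the nucleolus, fell in 12 of 23 cases with no rise, against 8.45% of all genes that fell. The median log2 difference was -0.37. Without replicate 2, 11 fell and the median was -0.30. The count depended on the 7 h arrays, with 7, 5 and 7 falls when replicate 1, 2 or 3 of 7 h was left out. All 12 remained above saline at 22 h. Nop58, a core protein of small nucleolar ribonucleoproteins, went from 8.97, 9.02 and 9.08 to 8.15, 8.18 and 7.77 (1.99-fold), and Utp20, a processing factor of the small subunit, fell 1.5-fold. Among genes of the cytosolic ribosome's own proteins, 2 of 22 fell and the median log2 difference was -0.05. Of 27 constitutive proteasome subunits 3 were higher, against 3.48% of all genes, or 10 without replicate 2, against 8.04%, and none was lower. Psmb5, a catalytic subunit, rose from 11.06, 11.06 and 11.04 to 11.44, 11.35 and 11.31 (1.24-fold, limma adjusted p = 0.00839).

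**Figure D3:**
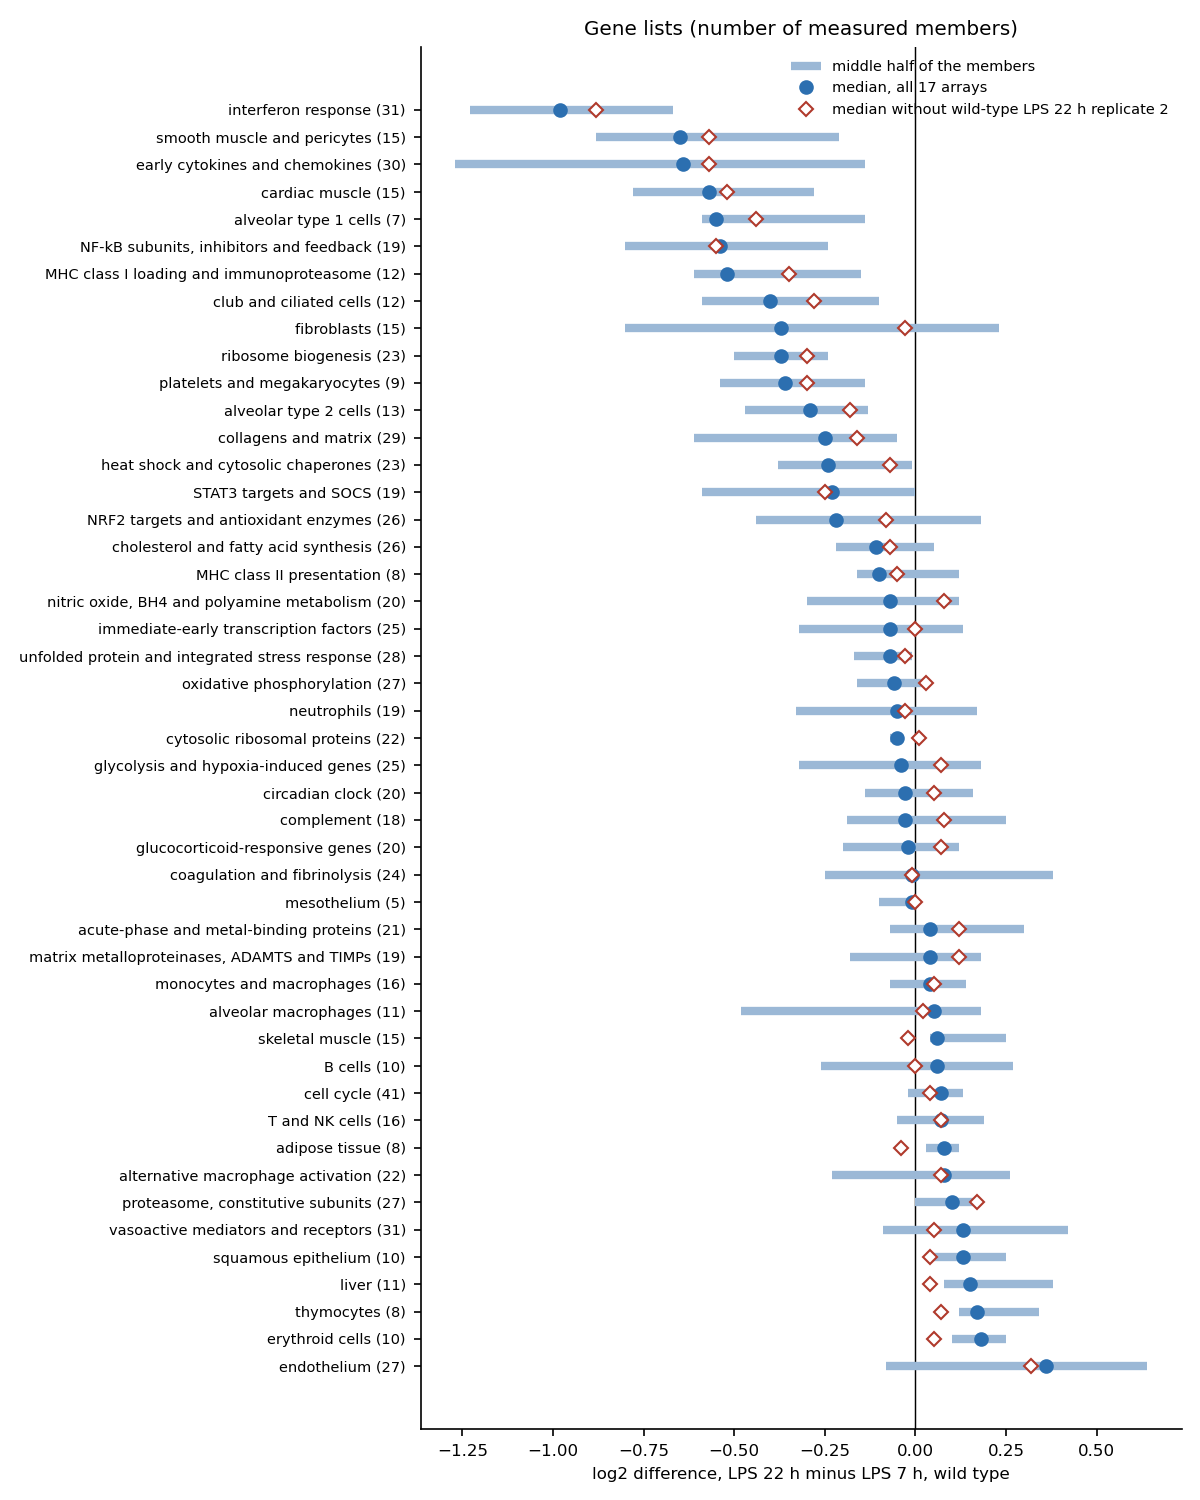
Median log2 difference between LPS 22 h and LPS 7 h in wild-type lung (x axis) for 47 gene lists (y axis, with the number of measured members), from all 17 arrays (filled circles) and without LPS 22 h replicate 2 (open diamonds). Bars span the middle 50% of the members in the fit of all arrays. The interferon response had the lowest median, -0.98, and endothelium the highest, 0.36.

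Contractile genes of smooth muscle fell further below the saline level. Of 15 measured genes of smooth muscle and pericytes 9 fell, against 8.45% of all genes, with a median log2 difference of -0.65. Without replicate 2, 10 fell, against 8.52%, with a median of -0.57. All 9 were below saline at 7 h and lower still at 22 h, against 36.5% of all genes that fell. The median member was 0.40 log2 units below saline at 7 h and 1.08 below it at 22 h. Myl9, a regulatory light chain of smooth muscle myosin, went from 10.41, 10.33 and 10.26 to 9.35, 9.07 and 9.16, a 2.21-fold fall (limma adjusted p = 4.64e-05). Actg2, a smooth muscle actin, fell 2.38-fold and the mural receptor gene Notch3 2.08-fold. Prkg1, of the vasoactive list, is the cGMP-dependent kinase that relaxes smooth muscle in response to nitric oxide. It went from 7.81, 8.09 and 7.88 to 7.03, 6.47 and 7.17, a 2.05-fold fall (limma adjusted p = 0.000353). The only member of the list that rose was Kcnj8, described with the rises.

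Fibroblast and matrix genes were lower in part. Of 15 fibroblast markers 6 fell and 2 rose, and the median log2 difference was -0.37. Without replicate 2, 6 fell and 3 rose and the median was -0.03. Ogn, which encodes the small matrix proteoglycan osteoglycin, stood at 10.48, 10.49 and 10.59 at 7 h and 8.43, 6.91 and 8.46 at 22 h, with saline at 12.03 ± 0.11 (SD, n = 4). The array at 6.91 was replicate 2, and the log2 difference was -2.59 with it (SE 0.28, limma adjusted p = 3.1e-05) and -2.07 without it (limma adjusted p = 9.68e-11). Inmt, a methyltransferase abundant in lung fibroblasts, fell 2.22-fold, whereas the receptor gene Pdgfra rose 1.47-fold. Of 29 collagens and matrix genes 11 fell and 2 rose, or 11 and 4 without replicate 2, and 9 of the 11 were below saline at both times. Col1a1, the main chain of type I collagen, fell 2.04-fold by its brightest probe set and by 0.13 on the log2 scale by the other, which was not called. Lox, which cross-links collagen, rose from 11.44, 11.20 and 10.99 to 12.11, 11.94 and 12.34 (1.90-fold). Mmp13, a collagenase, went from 7.64, 8.14 and 8.22 to 6.06, 5.53 and 5.77, a 4.63-fold fall to the saline level of 5.67 ± 0.28 (SD, n = 4). These levels lie below 6.204, the mean of the dimmest bin of probe sets, so the fold may understate the fall. Mmp9, a gelatinase stored in neutrophil granules, rose 2.02-fold.

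Some epithelial genes fell. Of 12 club and ciliated cell genes 6 fell with and without replicate 2, all 6 from below saline at 7 h to a lower level at 22 h. Cyp2f2 went from 13.90, 13.94 and 13.98 to 12.68, 12.40 and 12.47, a 2.68-fold fall (limma adjusted p = 8.69e-08). Of 13 alveolar type 2 genes 5 fell and 0 rose, or 5 and 1 without replicate 2. Cxcl15, a lung epithelial chemokine, went from 13.53, 13.54 and 13.48 to 12.71, 12.02 and 12.74 (2.04-fold), and Sftpb fell 1.51-fold. All 7 alveolar type 1 genes were called, 5 lower and 2 higher, or 4 and 2 without replicate 2. Cav1, the coat protein of caveolae in type 1 cells and endothelium, fell 2.28-fold from 11.92, 11.60 and 11.65 to 10.62, 10.04 and 10.93, and the water channel gene Aqp5 rose 1.40-fold. Among 26 NRF2 targets and antioxidant enzymes 8 fell and 3 rose, against 8.45% and 3.48% of all genes, and 7 fell and 5 rose without replicate 2. The detoxifying enzymes Ephx1 (1.81-fold) and Gstm1 (1.62-fold) fell, and Gsr, which regenerates reduced glutathione, rose 1.35-fold.

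Genes of heart muscle, which in mice also sheathes the pulmonary veins, fell in 9 of 15 cases with and without replicate 2, against 8.45% and 8.52% of all genes, with a median log2 difference of -0.57. Actc1, cardiac actin, went from 11.73, 11.58 and 11.42 to 10.59, 10.28 and 10.32 (2.26-fold), and the atrial light chain gene Myl7 fell 1.89-fold. Skeletal muscle genes, by contrast, gave no call among 15 by limma, and Ckm stood between 8.42 and 8.77 on the 6 arrays. Among the largest falls were also a pair of genes abundant in fat, Adipoq and Car3. Adipoq, the adipocyte hormone adiponectin, went from 8.53, 8.66 and 8.91 to 6.80, 6.56 and 7.04 (3.73-fold), with saline at 9.49 ± 0.50 (SD, n = 4). Car3, a carbonic anhydrase, went from 9.80, 10.02 and 10.03 to 7.05, 8.10 and 8.01 (4.68-fold by its brightest probe set, the other being not called), with saline at 11.30 ± 0.41 (SD, n = 4). Of the 8 adipose markers Adipoq alone was called, and the other 7 had log2 differences between -0.03 and 0.25. Ppbp, a chemokine precursor of platelet granules, went from 11.52, 11.52 and 11.73 to 10.19, 8.92 and 9.73 (3.93-fold), with saline at 10.10 ± 0.21 (SD, n = 4). It was 1 of 3 platelet genes of 9 that fell.

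**Figure D4:**
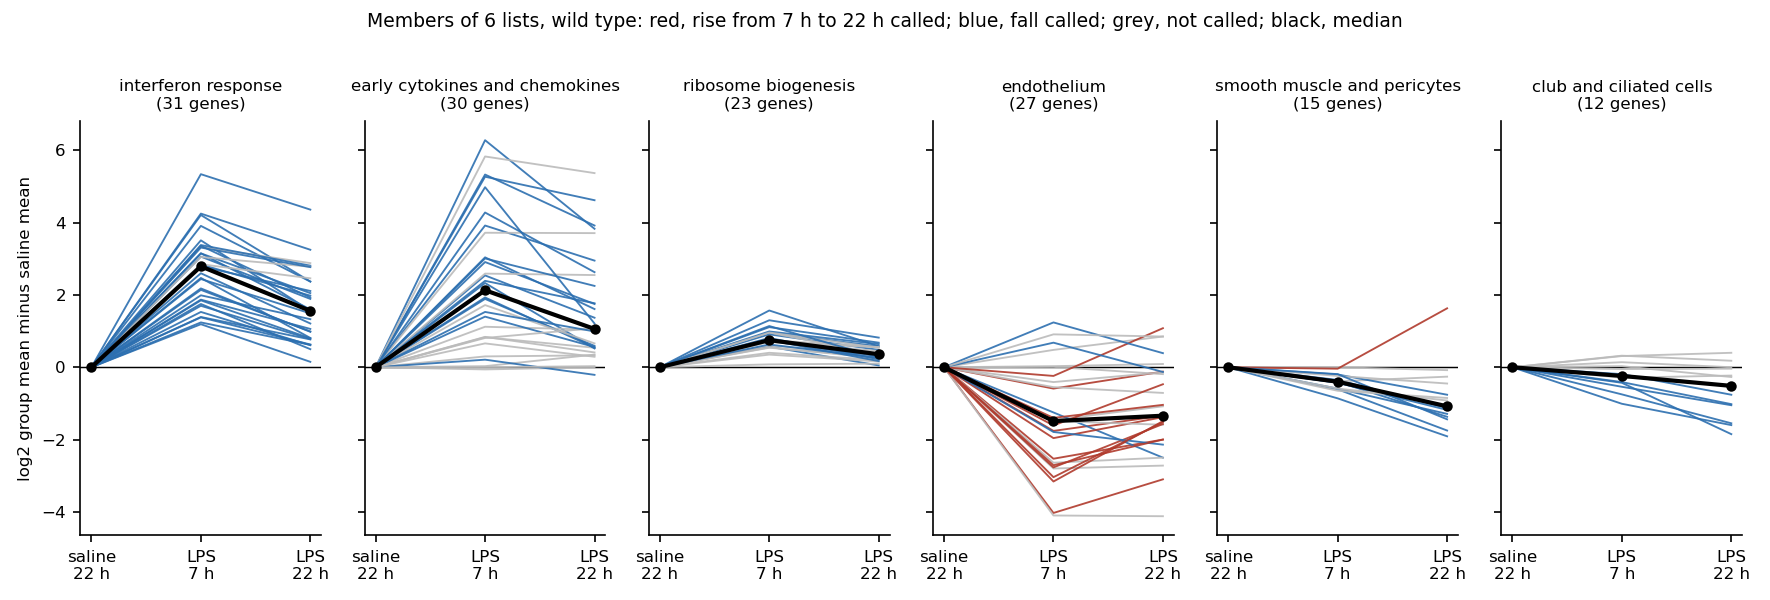
Group mean minus saline mean on the log2 scale (y axis) after saline, 7 h after LPS and 22 h after LPS (x axis) for every measured member of 6 lists in wild-type lung. Red lines are members called higher and blue lines members called lower at 22 h than at 7 h, grey lines were not called, and black is the median member. Interferon genes came down from a median of 2.79 to 1.56 above saline, and smooth muscle genes went from 0.40 to 1.08 below it.

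Endothelial genes gave more rises than any other of the 20 cell type lists. Of 27 measured, 12 rose (3.48% of all genes did) and 4 fell, with a median log2 difference of 0.36, and 13 rose and 4 fell without replicate 2. Without 7 h replicate 3, 8 rose. Of the 12, 11 lay below saline at both times and nearer to it at 22 h, against 33.2% of all genes that rose. Over the whole list the median member was still 1.34 log2 units below saline at 22 h, after 1.49 below it at 7 h. Thbd, or thrombomodulin, turns thrombin into an activator of protein C on the endothelial surface. It stood at 12.80 ± 0.05 after saline (SD, n = 4), at 9.47, 9.80 and 9.66 at 7 h and at 11.65, 10.98 and 11.30 at 22 h, a 3.17-fold rise (limma adjusted p = 5.28e-06). Ptprb, an endothelial phosphatase that restrains the receptor Tie2, went from 9.15, 9.18 and 9.26 to 10.65, 10.38 and 11.14 (2.88-fold), with saline at 12.24 ± 0.11 (SD, n = 4). Tek, the gene of Tie2 itself, rose by 0.93 on the log2 scale. Nos3, the endothelial nitric oxide synthase, was the member that passed its saline level of 8.72 ± 0.09 (SD, n = 4). It went from 8.29, 8.73 and 8.42 to 10.03, 10.03 and 9.32, a 2.49-fold rise (limma adjusted p = 7.92e-05).

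The endothelial list did not move as a block. Vwf, the von Willebrand factor gene, stood at 11.48 ± 0.11 after saline (SD, n = 4), at 10.31, 10.06 and 10.31 at 7 h and at 9.31, 8.49 and 9.14 at 22 h, a 2.38-fold fall (limma adjusted p = 0.00031). Robo4, Car4 and Icam2 also fell, with log2 differences of -0.84, -0.80 and -0.35. Cdh5, the endothelial cadherin, had a log2 difference of -0.20 and Pecam1 one of 0.38, and neither was called.

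Among 24 coagulation and fibrinolysis genes 5 rose and 4 fell, or 6 and 3 without replicate 2. Procr, the endothelial receptor that presents protein C to thrombomodulin, went from 8.53, 8.71 and 8.79 to 10.67, 9.85 and 9.80 (2.7-fold), with saline at 6.94 ± 0.13 (SD, n = 4). Unlike Thbd it was therefore above saline at both times. Plat, the tissue plasminogen activator, rose by 0.95 and F3, or tissue factor, by 0.76 on the log2 scale. Fga, the fibrinogen alpha chain, rose 2.06-fold. Of 31 vasoactive mediators and receptors 7 rose and 2 fell with and without replicate 2. Kcnj8, the pore-forming subunit of the ATP-sensitive potassium channel of vascular smooth muscle, stood at 8.63, 8.64 and 8.48 at 7 h and at 10.58, 9.87 and 10.29 at 22 h. With saline at 8.62 ± 0.10 (SD, n = 4), 2 of the 7 h arrays lay in the range of the saline arrays and the array at 8.48 just below it, and the rise from 7 h to 22 h was 3.18-fold (log2 difference 1.67, SE 0.13, limma adjusted p = 1.43e-06). Abcc9, the regulatory subunit of the same channel, had a log2 difference of 0.13 and was not called. Ramp3, a co-receptor of adrenomedullin, rose from 9.92, 10.50 and 10.56 to 11.94, 11.81 and 11.95 (2.97-fold), and Npr3, the clearance receptor of natriuretic peptides, rose 2.28-fold.

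Dio2 showed the largest rise of any gene reported here. It encodes the deiodinase that turns thyroxine into active thyroid hormone. The log2 signal was 7.46 ± 0.26 after saline (SD, n = 4), 9.08, 9.37 and 9.13 at 7 h and 12.78, 12.09 and 12.32 at 22 h. All 22 h arrays lay above all 7 h arrays, a 9.21-fold rise (log2 difference 3.20, SE 0.23, limma adjusted p = 6.99e-07). Its 3 probe sets all rose, by between 1.31 and 3.20 on the log2 scale. Other genes climbed further above saline in the same way. Mat1a, an S-adenosylmethionine synthetase best known from liver, went from 8.60, 8.88 and 8.98 to 10.61, 10.47 and 10.35 (3.15-fold), with saline at 7.54 ± 0.12 (SD, n = 4). Pappa, a protease that cleaves insulin-like growth factor binding proteins, went from 8.34, 8.39 and 8.36 to 9.52, 9.64 and 10.10 (2.62-fold), with saline at 7.95 ± 0.17 (SD, n = 4). Igfbp3, a carrier of insulin-like growth factors, went from 10.74, 10.49 and 10.37 to 12.04, 11.52 and 12.25 (2.64-fold), with saline at 9.32 ± 0.19 (SD, n = 4).

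Tmem119 and Scn3b dipped below saline at 7 h and passed it by 22 h. Tmem119, a membrane protein of osteoblasts and microglia, stood at 10.17 ± 0.09 after saline (SD, n = 4), at 9.35, 9.48 and 9.57 at 7 h and at 11.14, 11.37 and 11.08 at 22 h (3.31-fold, limma adjusted p = 3.85e-07). Scn3b, a sodium channel beta subunit, went from 9.45, 9.10 and 9.30 to 11.36, 10.59 and 10.77 (3.08-fold), with saline at 10.43 ± 0.24 (SD, n = 4). Vat1, a protein first found in synaptic vesicles, is the named rise that rested on replicate 2. It stood at 8.5, 8.44 and 8.42 at 7 h and at 9.28, 11.40 and 9.13 at 22 h, and the log2 difference of 1.48 (SE 0.42, limma adjusted p = 0.0345) became 0.75 without that array (limma adjusted p = 0.0114). Pmvk, a kinase of cholesterol synthesis, rose 2.51-fold from 9.23, 9.24 and 9.29 to 11.00, 10.08 and 10.65, the only rise among 26 genes of cholesterol and fatty acid synthesis. Without replicate 2, Lss, a cyclase of the same pathway, was also called higher. In the same list Elovl6, Scd2 and Fasn, enzymes of fatty acid elongation, desaturation and synthesis, fell 2.30-fold, 2.18-fold and 1.54-fold.

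Acute-phase genes mostly held their 7 h level. Of 21 measured, 3 rose and 2 fell, against 3.48% and 8.45% of all genes, and 5 rose and 2 fell without replicate 2, against 8.04% and 8.52%. The median member was 2.54 log2 units above saline at 7 h and 2.59 above it at 22 h. Orm1 and Orm2, which encode the plasma protein orosomucoid, were among those that rose. Orm1 went from 9.26, 9.32 and 9.36 to 10.97, 10.41 and 11.06 (2.83-fold), with saline at 6.22 ± 0.10 (SD, n = 4). Orm2 went from 6.16, 6.06 and 6.19 to 7.36, 7.14 and 8.0 (2.57-fold), with saline at 5.80 ± 0.07 (SD, n = 4). The transcripts of these genes are near-identical, so a probe set of either may also bind the other, and the values are uncertain as to the gene. Saa3, serum amyloid A of extrahepatic tissues, had a log2 difference of 0.09, and Steap4, a metalloreductase, fell 2.54-fold.

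Neutrophil genes stayed high with changes in both directions. Of 19 measured, 4 rose and 3 fell with and without replicate 2, and the median member was 2.62 log2 units above saline at 7 h and 2.31 above it at 22 h. S100a8 and S100a9, the subunits of calprotectin, had log2 differences of 0.02 and 0.17. Ngp, a granule protein gene of immature neutrophils, rose from 12.90, 12.87 and 13.17 to 13.78, 13.67 and 13.56 (1.62-fold), and Trem1, an amplifying receptor, fell 1.67-fold. Of 16 monocyte and macrophage genes 3 fell and none rose, and without replicate 2, 3 fell and 3 rose. Fcgr1, the high-affinity Fc receptor that interferon gamma induces, fell 2.12-fold from 10.45, 10.38 and 10.52 to 9.71, 9.21 and 9.18. Of 18 complement genes 3 rose and 2 fell, and the 3 rises were the chains of C1q, C1qa (1.39-fold), C1qb (1.81-fold) and C1qc (1.48-fold). For C1qb 1 of 3 probe sets was called. Without replicate 2, 5 rose, with Cfp and Itgam added to these chains.

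Most other groups had few calls. Of 20 clock genes 1 fell, Tef, from 11.81, 11.65 and 11.65 to 11.11, 10.93 and 11.36 (1.49-fold, limma adjusted p = 0.00235), by 1 of its 3 probe sets. The other 19 had log2 differences between -0.57 and 0.37. The lowest of them, Nr1d2, was not called by its brightest probe set (limma adjusted p = 0.0843). Its other probe set, at -0.54, was called lower. Arntl, the gene of BMAL1, was at 8.09, 8.02 and 8.07 at 7 h and 8.63, 8.21 and 8.45 at 22 h (limma adjusted p = 0.0511). Without replicate 2, Arntl, Nfil3 and Csnk1e were called higher, with log2 differences of 0.48, 0.52 and 0.37. The core repressor genes Per1, Per2, Cry1 and Cry2 had log2 differences of -0.04, 0.17, 0.15 and -0.07, and Nr1d1 and Dbp -0.13 and -0.02. No gene was called among 41 of the cell cycle or 16 of T and NK cells (limma, adjusted p under 0.05), and 1 of each was called higher without replicate 2. Pcna stood between 11.59 and 11.67 on all 6 arrays. A single gene was called in each of the lists of the unfolded protein response (28 measured), oxidative phosphorylation (27) and glucocorticoid-responsive genes (20), each of them lower. Without replicate 2 these lists had 1 rise and 0 falls, 1 rise and 1 fall, and 3 rises and 1 fall. Glycolytic and hypoxia-induced genes had more calls. Of 25 measured, 5 fell and 3 rose, against 8.45% and 3.48% of all genes. Without replicate 2, 5 fell and 6 rose, against 8.52% and 8.04%. Pfkfb3, which makes the activator of phosphofructokinase, fell 2.67-fold from 12.35, 12.40 and 12.41 to 11.25, 10.40 and 11.24, and Vegfa fell 1.46-fold. Markers of tissues that could be carried over in dissection gave few calls, with 0 of 11 for liver, 0 of 10 for squamous epithelium and 1 of 8 for thymocytes, or 2 without replicate 2.

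The same interval was measured in NOS2-/- lungs on separate arrays. Over all probe sets, whose values depend on each other, the changes of the genotypes correlated at 0.266, or 0.453 without wild-type replicate 2. Of the 2451 probe sets called in wild type, 1890 (77.1%) had the same sign in NOS2-/- lungs. The difference between the genotypes in the change was called at 687 probe sets (3.04%), 564 with a higher (2.49%) and 123 with a lower value (0.544%) in NOS2-/-. Without wild-type LPS 22 h replicate 2 it was called at 1628, 1025 higher and 603 lower. Of the 29 genes named here as the largest rises and falls of wild-type lung, 18 differed between the genotypes. These genes were chosen for their wild-type change, which is part of the difference. The choice itself thus favours such calls, and their p-values do not allow for it. Cxcl10 stood at 13.55, 13.51 and 13.74 at 7 h and at 13.52, 13.49 and 13.50 at 22 h in NOS2-/- lungs, where the log2 difference was -0.10 against -2.45 in wild type (limma adjusted p of the difference = 3.97e-05). Vcam1 and Ccl17 differed likewise, with -0.10 and -0.01 in NOS2-/-. Ogn, Adipoq and Car3, with falls of 1.90 or more on the log2 scale in wild type, had log2 differences of 0.05, 0.61 and 0.51 in NOS2-/-.

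As the genes were chosen for their wild-type change, the wild-type values are a description. The p-values of the difference below carry the same limit. Rises of some of these genes were smaller in NOS2-/- lungs. Kcnj8 stood at 8.54, 8.51 and 8.45 at 7 h and at 8.89, 8.82 and 8.70 at 22 h, a log2 difference of 0.31 against 1.67 in wild type (limma adjusted p of the difference = 0.00144). Mat1a went from 8.84, 9.44 and 8.61 to 8.67, 8.72 and 8.42, a log2 difference of -0.36 against 1.66 (limma adjusted p of the difference = 0.000565). Procr and Pappa had log2 differences of 0.15 and 0.00 in NOS2-/- lungs. For Thbd and Ptprb, with 1.23 and 1.15 in NOS2-/-, a difference between the genotypes was not called (limma adjusted p = 0.269 and 0.349). Dio2 rose in both, by 1.88 on the log2 scale in NOS2-/- and by 3.20 in wild type (limma adjusted p of the difference = 0.0425). Among falls, Ifng and Ddx60, at -2.16 and -1.65 in NOS2-/-, were not called different (limma adjusted p = 0.202 and 0.423).

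**Figure D5:**
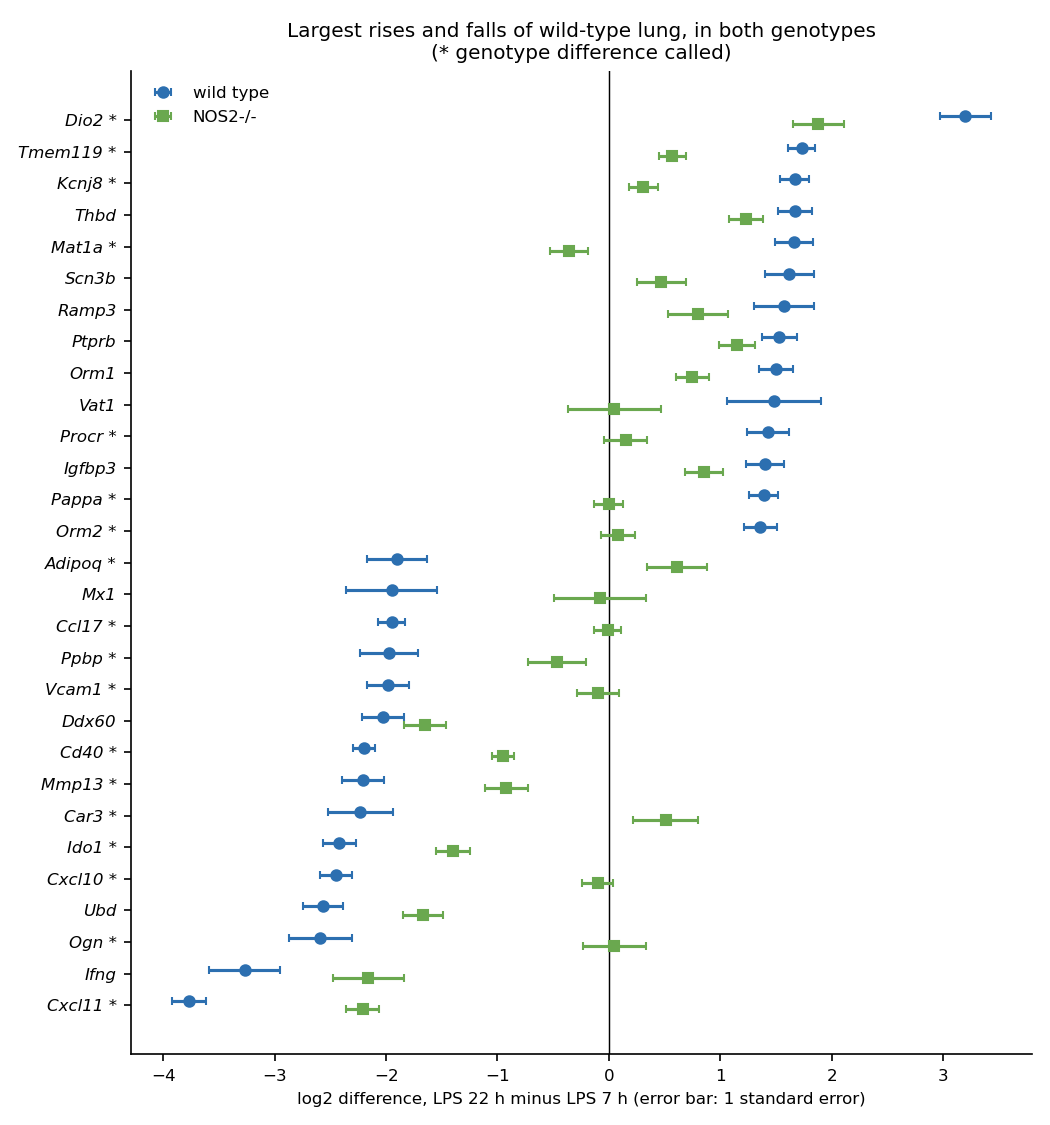
Log2 difference between LPS 22 h and LPS 7 h (x axis) for the 14 rises and 15 falls of wild-type lung named as the largest (y axis), in wild-type (circles) and NOS2-/- lungs (squares), with bars of 1 standard error from the limma fit. An asterisk marks the 18 genes whose change differed between the genotypes at a limma adjusted p under 0.05. The genes were chosen for the size of their wild-type change, which enters the difference between the genotypes.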

How the data were processed

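RNA of 17 mouse lungs was measured on Affymetrix arrays, and the deposited log2 values had been made by the authors with the affy package. No source used here gives its version or normalization options. The 6 groups were taken from the labels. A limma fit (version 3.58.1, R 4.3.3) on all 17 arrays, with 1 mean per group and no covariates, gave log2 differences, standard errors and Benjamini-Hochberg adjusted p over 22626 probe sets, called under 0.05. The 64 control probe sets were left out. Of the rest, 20380 name 1 gene, 691 several and 1555 none. Each of 12393 genes is represented by its probe set with the highest mean.

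Named genes are the 15 largest rises and falls whose arrays do not overlap, up to 4 called members of each of 47 lists with 1 more for an unnamed direction (for lists with fewer than 2 calls, the 2 brightest members), and all clock genes. Members and lists were chosen with earlier results of these data known. Some genes are not reported here. The number of arrays limits the precision, and an exact test of 3 against 3 arrays cannot go below 0.1. Alternatives were other normalizations, sample sets, filters, array weights, a replicate block, thresholds and leaving out each array. The method was tested on simulated data, in which noise was independent and each probe set had the same spread on every array. That test does not cover an array that stands apart, such as wild-type LPS 22 h replicate 2.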

Additional observations from a re-analysis of the deposited data

Results flagged for a closer look

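Among the 4 saline arrays of wild-type lung, 51 named genes were examined for a single array far from the others, and 4 had one. About 1 in 20 groups has one by chance. Mmp13 had 1 array at 5.26, with the others between 5.79 and 5.85. Arntl had 1 at 7.66, with the others between 7.80 and 7.82, and Bhlhe41 1 at 7.17, with the others between 7.34 and 7.36. Nos3 had 1 array at 8.86, with the others between 8.65 and 8.69.

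The change from 7 h to 22 h differed between the genotypes for 18 of the 29 genes with the largest wild-type changes, by limma's interaction term. As NOS2-/- minus wild type on the log2 scale, the difference was below 0 for 7 genes that rose in wild type. It was -1.33 for Dio2, -1.15 for Tmem119, -1.36 for Kcnj8, -2.02 for Mat1a, -1.29 for Procr, -1.38 for Pappa and -1.28 for Orm2. It was above 0 for 11 genes that fell in wild type. Among immune genes it was 1.56 for Cxcl11, 2.35 for Cxcl10, 1.02 for Ido1, 1.26 for Cd40, 1.94 for Ccl17 and 1.87 for Vcam1. It was 2.64 for Ogn, 1.29 for Mmp13, 1.5 for Ppbp, 2.73 for Car3 and 2.51 for Adipoq. These genes were chosen for their wild-type change, which enters the difference.

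The control probe set for the middle of 18S rRNA, which enters no comparison, had a log2 signal of 7.67 in wild-type LPS 22 h replicate 2, with the saline arrays between 6.38 and 6.77.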

How the results depend on the processing

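No named gene past the threshold in either fit changed direction under any alternative that was run. Differences near 0 that were not called did change sign without 22 h replicate 2, among them Clock (-0.18 to 0.07), Cry2 (-0.07 to 0.23) and Per2 (0.17 to -0.01), and the median of the clock list (-0.03 to 0.05), oxidative phosphorylation (-0.06 to 0.03), glycolysis (-0.04 to 0.07) and complement (-0.03 to 0.08). By the median over a gene's probe sets, 18 named genes moved by more than the spread between arrays. Calls of the wild-type comparison are given as all, rises and falls, and those of the genotype difference as all, higher and lower in NOS2-/-. The wild-type comparison gave 1424, 343 and 1081 calls with wild-type arrays only and 467, 93 and 374 with the compared groups only, where fewer arrays enter. It gave 1257, 279 and 978 at an adjusted p under 0.01, 252, 37 and 215 with at least 2-fold added, 1551, 458 and 1093 with 1 probe set per gene, and 35, 8 and 27 by a fold of 3 or 0.3 without a test. Rises were 1235 after quantile normalization and 1363 with array weights. The genotype difference gave 370, 309 and 61 calls with the compared groups only, 2011, 1244 and 767 with array weights, 170, 145 and 25 at 0.01, 164, 145 and 19 with at least 2-fold, and 287 lower after quantile normalization. The cause was not tested for these scalings.

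Leaving out 1 array gave from 1451 to 4098 wild-type calls, 344 to 1676 rises and 1107 to 2513 falls, and 243 to 1628 genotype differences, 206 to 1121 higher and 37 to 603 lower. Without 7 h replicate 1, 2 or 3 there were 1583, 1451 and 1557 wild-type calls, and without 22 h replicate 1, 2 or 3 there were 3345, 3425 and 4098. Deviations of same-numbered arrays from their group means correlated at -0.0537, -0.0807 and 0.0075 in wild type. Those of arrays with different numbers lay between -0.105 and 0.127. With 3 arrays per group, 1 of which stood apart, these values cannot show whether the numbers mark arrays handled together. With the replicate number as a block there were 1769 wild-type calls, 436 of them rises and 1333 falls, and 234 genotype differences, 193 higher and 41 lower.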
